A study of Arabidopsis thaliana with 16 samples.

Results

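Peaks at 10 Arabidopsis genes of salicylic acid and N-hydroxypipecolate metabolism were compared between DNA-binding profiles of WRKY18, WRKY33 and WRKY40. A peak belonged to a gene when the authors had assigned it to that gene's promoter as the nearest one, whatever its distance. The genes are ICS1 (AT1G74710), EDS5 (AT4G39030), PBS3 (AT5G13320), ALD1 (AT2G13810), SARD4 (AT5G52810), FMO1 (AT1G19250), CBP60G (AT5G26920), SARD1 (AT1G73805), UGT76B1 (AT3G11340) and DMR6 (AT5G24530). Of these 10 genes, 8 had at least 1 peak, where 11.1% of all 37899 loci did, and together they held 55 of the 16600 peaks in the 12 lists. SARD4 and UGT76B1 had no peak in any list.

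Salicylic acid is a plant hormone that sets up defence against biotrophic pathogens, and N-hydroxypipecolic acid is the signal that spreads resistance to distant leaves. In the chloroplast, ICS1 makes isochorismate, EDS5 carries it out to the cytosol, and PBS3 joins it to glutamate, giving a product that breaks down to salicylic acid. ALD1, SARD4 and FMO1 act in order to turn lysine into pipecolic acid and then into its N-hydroxy form. CBP60G and SARD1 are related transcription factors that switch on genes of both routes. UGT76B1 attaches glucose to salicylic acid and to N-hydroxypipecolic acid, and DMR6 hydroxylates salicylic acid; both lower the active pools.

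The measurements were ChIP-seq libraries (DNA bound to a protein, precipitated with an antibody and sequenced) from whole seedlings aged 12 days. Each of 3 lines labelled Col-0, WRKY18-HA, WRKY33-HA and WRKY40-HA, carried 1 WRKY factor with an HA tag, and was sampled after 2 h in medium with 1 µM flg22 and untreated at 0 h. flg22 is a fragment of bacterial flagellin that plants perceive as a sign of microbes. Each line at each time had 2 biological replicates, and untagged Col-0 WT seedlings of the same time and replicate served as the control for peak calling in all 3 lines. The lines are described as complementation lines; the promoter driving each tagged gene is not given in the sources used here. The 2 h seedlings all had flg22, so effects of the peptide, of the change of medium and of time cannot be told apart. Whole seedlings mix many cell types, so binding in more cells and stronger binding per cell cannot be told apart.

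The lists held 1653 to 3272 peaks at 2 h, against 260 and 1843 at 0 h for WRKY18-HA and 9 to 44 at 0 h for the other lines. Each peak has a score given by the authors, on a scale they do not define, that starts at about 10 in every list. Its rank within its own list, as a percent of the list's length, is also given here, with low values for strong peaks. Between 0 and 276 of the authors' peak numbers were absent per list, so a gene without a peak in a list was not shown to be unbound.

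Genes of salicylic acid synthesis and ALD1 and FMO1 carried most of the binding after flg22. With WRKY18-HA, 5 of the 10 genes had a peak in both 2 h replicates (ICS1, EDS5, PBS3, ALD1 and FMO1), where 3.5% of all loci did. The same 5 genes had peaks in both 2 h lists of WRKY40-HA, where 3.95% of loci did. With WRKY33-HA it was 4 genes (EDS5, PBS3, ALD1 and CBP60G), where 3.1% of loci did. Among the 27444 protein-coding loci the shares were 4.68%, 5.24% and 4.1% for WRKY18-HA, WRKY40-HA and WRKY33-HA. EDS5, PBS3 and ALD1 were in all 6 lists at 2 h, as were 590 loci (1.56%). Counting peaks in either replicate, the genes were 6 with WRKY18-HA (SARD1 in addition), 7 with WRKY33-HA (ICS1, FMO1 and DMR6 in addition) and 6 with WRKY40-HA (SARD1 in addition), where 7.26%, 6.97% and 7.83% of loci had one. The counts of genes were not tested, because the genes were chosen as a group with results of these data known.

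**Figure D1:**
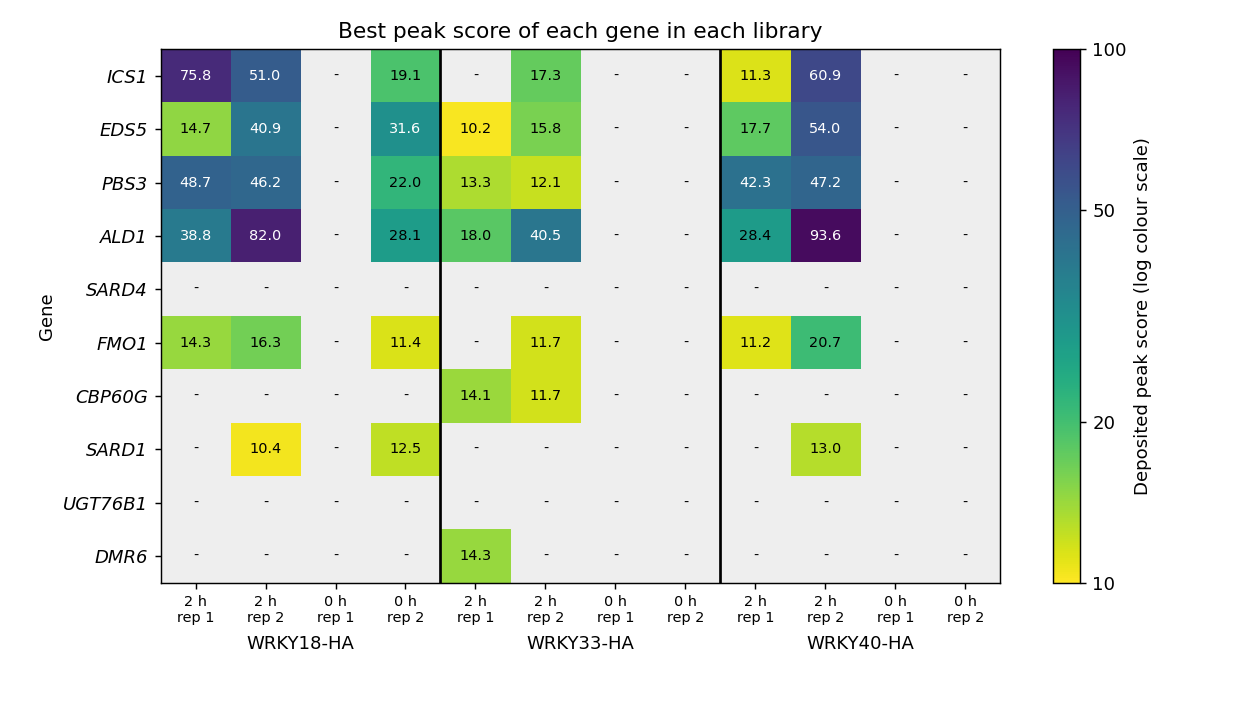
Best deposited peak score of each of the 10 genes (rows) in each of the 12 libraries (columns, grouped by line, 2 h left of 0 h); a dash on grey marks a gene with no peak in that list. Scores above 40 lie at ICS1, EDS5, PBS3 and ALD1 in 2 h libraries, and every 0 h score comes from WRKY18-HA replicate 2.

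ICS1, the isochorismate synthase that commits chorismate to salicylic acid, had the highest WRKY18-HA score of the 10 genes in replicate 1. Its main site spanned chromosome 1 from 28068302 to 28069409, upstream of the gene, with peak midpoints 1378 to 1514 bp before the start. WRKY18-HA scored 75.8 and 51.0 there at 2 h in replicates 1 and 2, ranks of 1.499% and 3.84%. At 0 h the site scored 19.1 in replicate 2 and was not listed in replicate 1. These WRKY18-HA peaks held 4204 and 3148 tags at 2 h, which the authors give as 30.1-fold and 23.6-fold over WT, and 452 tags at 0 h, 7.03-fold over WT. The tag counts cover unlike widths, 1075 and 941 bp at 2 h and 510 bp at 0 h. WRKY40-HA scored 60.9 at the main site in replicate 2, a value between those of WRKY18-HA, and the site was not listed in replicate 1. WRKY33-HA scored 17.3 there in replicate 2, at rank 33.2%, and had no ICS1 peak in replicate 1.

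A second ICS1 site lay farther upstream, at chromosome 1 from 28067706 to 28068184, with midpoints 2294 to 2350 bp before the start of ICS1. The authors annotate this site as the transcript end of the neighbouring gene AT1G74700. It scored 15.9 in WRKY18-HA replicate 1, 11.3 in WRKY40-HA replicate 1 and 10.6 in WRKY33-HA replicate 2, all at 2 h. In replicate 1 the WT score here was raised, at 1.77 for WRKY18-HA and 1.79 for WRKY40-HA. By score those peaks were 9.01-fold and 6.34-fold over WT, where the median peak of their lists was 14.4-fold and 14.5-fold. WRKY40-HA therefore had an ICS1 peak in both replicates, but not at the same site. In that replicate 1 list, 4 of the first 100 peak numbers and 5 of the first 200 were absent, and no peak of the main site was among those present.

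EDS5, the transporter that moves isochorismate out of the chloroplast, had 3 separate sites. The site nearest its start lay at chromosome 4 from 18185141 to 18185548, with midpoints 321 to 333 bp upstream, in the annotated promoter. WRKY40-HA scored 17.7 and 54.0 there at 2 h, and WRKY18-HA scored 14.7 and 40.9 at 2 h against 31.6 at 0 h in replicate 2. WRKY33-HA had no peak at this site. The 0 h score of WRKY18-HA thus lay between its 2 h scores.

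The other upstream site of EDS5, from 18184868 to 18185114, was narrow, at 188 to 232 bp between peak edges. It scored 37.7 in WRKY18-HA replicate 2, 11.7 and 22.01 in WRKY40-HA and 15.8 in WRKY33-HA replicate 2. The WT score was raised at this site, at 1.76 to 2.04, above at least 91% of the WT scores in each list. By score these peaks were 18.5-fold over WT in WRKY18-HA, 5.94-fold and 12.5-fold in WRKY40-HA and 8.6-fold in WRKY33-HA. By tags they were 19.0-fold, 7.34-fold, 15.5-fold and 7.2-fold over WT, in the same order. The third site, from 18186311 to 18186752, lay in intron 1, with midpoints 843 to 885 bp after the start. It was listed in all 6 libraries at 2 h with scores of 10.2 to 17.2, and in WRKY18-HA 0 h replicate 2 with 14.8. All of these are low scores, and the WRKY33-HA replicate 1 peak, at 10.2 and rank 96.8%, was the only EDS5 peak of its list. More than 1 peak per gene was uncommon in the lists: at 2 h, 7.45% to 15.6% of listed loci had 2 or more, and 0.465% to 2.20% had 3 or more, as EDS5 had in both WRKY40-HA lists.

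PBS3, the enzyme that conjugates isochorismate to glutamate, had the smallest replicate differences of the 3 genes listed in all 6 libraries at 2 h. Its site lay inside the gene, in intron 1, at chromosome 5 from 4267585 to 4268267, with peak midpoints 221 to 416 bp after the start. WRKY18-HA scored 48.7 and 46.2 at 2 h (mean 47.5 ± 1.75, SD, n = 2) and WRKY40-HA 42.3 and 47.2 (44.7 ± 3.51). WRKY33-HA scored 13.3 and 12.1 (12.7 ± 0.84), below all 4 values of the other lines. At 0 h WRKY18-HA scored 21.95 in replicate 2. The WT control had a high score here as well, 3.54 to 4.04 at 2 h, above at least 99.47% of the WT scores in each list, and 2.80 at 0 h, above 89.7% of them. Its part in the line difference was not tested. Scored against that control, WRKY33-HA was 3.35-fold and 3.40-fold over WT, where the median peak of its lists was 12.8-fold and 13.1-fold. By tags the same peaks were 2.84-fold and 6.50-fold over WT, against list medians of 7.16-fold and 7.30-fold, so the replicate 2 peak lay nearer to its median by tags than by score. A further PBS3 peak, 1196 bp upstream at the annotated transcript end of AT5G13310, appeared in WRKY18-HA replicate 2 alone at 2 h, with a score of 11.4.

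ALD1, the aminotransferase that starts pipecolic acid synthesis from lysine, had an upstream site in all 6 libraries at 2 h. It spanned chromosome 2 from 5766318 to 5767497, with midpoints 1475 to 1660 bp before the start. WRKY18-HA scored 38.8 and 82.0 in replicates 1 and 2, WRKY40-HA 21.7 and 93.6, and WRKY33-HA 17.98 and 40.5. At 0 h WRKY18-HA scored 28.1 in replicate 2, below both of its 2 h values. In replicate 2 the peak ranked within the best 2.30% of every 2 h list (1.00%, 1.13% and 2.30% for WRKY18-HA, WRKY40-HA and WRKY33-HA), against 9.22%, 29.8% and 25.7% in replicate 1. The gap between the WRKY40-HA replicates at ALD1 was thus wider than any gap between lines within a replicate.

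The maxima of those ALD1 peaks fell within 13 bp of each other over 7 libraries, from 5766953 to 5766966. A further ALD1 site, in intron 4 and 1099 to 1153 bp after the start, was listed only in replicate 1 at 2 h, with 28.0 for WRKY18-HA and 28.4 for WRKY40-HA. For WRKY40-HA replicate 1 this intron peak outscored the upstream one. It held 1220 and 1001 tags against 19 in WT in both cases. Neither WRKY33-HA list nor any replicate 2 list had it. The 2 libraries that hold it were called against the same WT control.

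FMO1, the monooxygenase that makes N-hydroxypipecolic acid, was bound far upstream with modest scores. Its main site spanned chromosome 1 from 6654399 to 6655621, with midpoints 1616 to 2287 bp before the start. WRKY18-HA scored 14.3 and 16.3 at 2 h, against 11.4 at 0 h in replicate 2. WRKY40-HA scored 11.2 and 20.7, with a neighbouring peak of 17.1 in replicate 2, and WRKY33-HA scored 11.2 in replicate 2. These peaks lay in the middle or weak part of their lists, between ranks 36.9% and 85.7%. WRKY33-HA replicate 2 also had a peak of 11.7 at 269 bp upstream of FMO1, only 4.20-fold over WT by score, on a raised WT score of 2.79. SARD4, the reductase between ALD1 and FMO1, had no peak, and neither did the 2 genes on each side of it.

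The paired regulators differed in which lists held their peaks. All of these peaks had low scores, and a gene without a peak was not shown to be unbound. CBP60G had peaks in both WRKY33-HA libraries at 2 h and in no WRKY18-HA or WRKY40-HA list, a pattern shared by 197 loci (0.52%). The site lay at chromosome 5 from 9474497 to 9474941, in the annotated promoter, with midpoints 922 and 970 bp upstream. Its scores were 14.1 and 11.7, at ranks 49.2% and 73.6%. The peaks held 198 tags (95% exact Poisson interval 171 to 228) and 153 tags (130 to 179), against 6 and 13 in WRKY33-HA's WT control. With 2 libraries against 4, the smallest p of an exact permutation test is 0.0667, and differences between WRKY33-HA and the other lines are given as values, with no test.

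SARD1 showed the other pattern, though weakly: it was listed in WRKY18-HA and WRKY40-HA replicate 2 at 2 h and in no WRKY33-HA list. Its peaks lay in intron 3, at chromosome 1 from 27746654 to 27747440, with midpoints 2112 to 2157 bp after the start. The scores were 10.4 for WRKY18-HA and 13.0 for WRKY40-HA at 2 h, and 12.5 for WRKY18-HA at 0 h. WRKY18-HA thus scored lower at 2 h than at 0 h here, and its 2 h peak ranked at 94.99%, close to the end of its list. By tags the WRKY18-HA peaks were nearly equal, at 5.9-fold over WT at 2 h and 5.92-fold at 0 h. Their maxima lay apart, at 27746856 and 27747137.

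Of the turnover genes, DMR6 had a single peak. It came from WRKY33-HA replicate 1 at 2 h, at chromosome 5 from 8377669 to 8377982, with its midpoint 1008 bp from the start. It scored 14.3, at rank 48.5%, with 138 tags (95% interval 116 to 163) against 8 in WT. WRKY33-HA replicate 2 did not list it, so it was not repeated. UGT76B1 had no peak, nor did the 2 genes on each side of it.

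**Figure D2:**
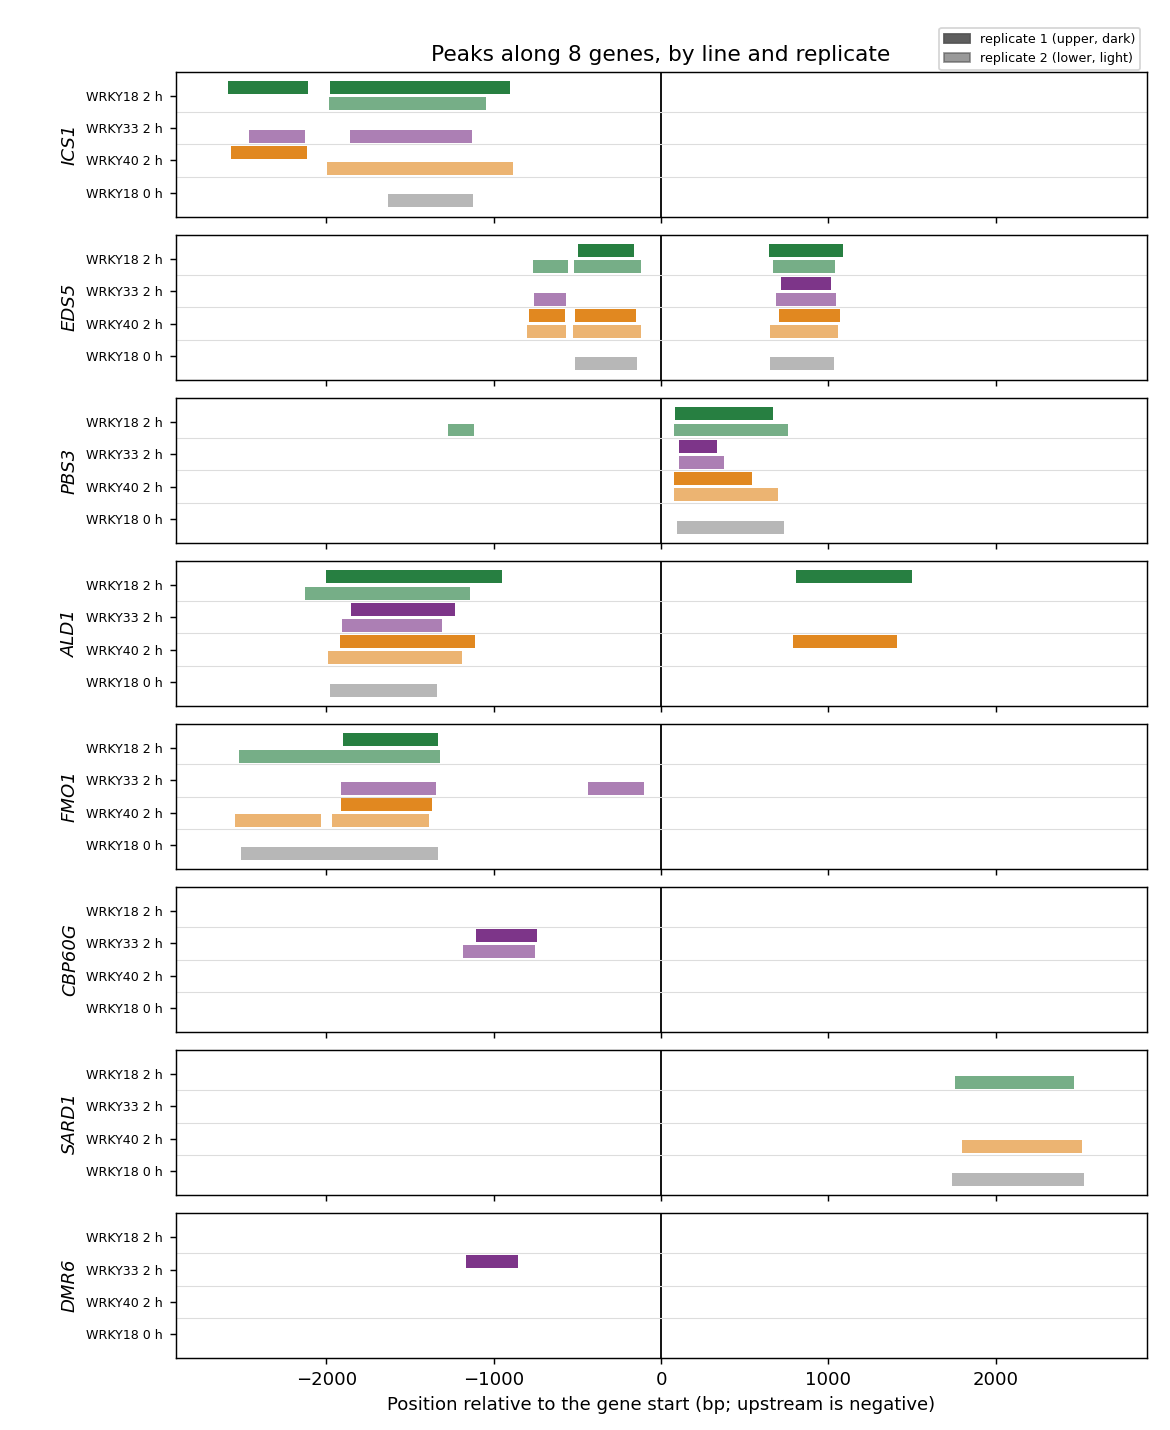
Peaks of the 8 genes with any peak, drawn as bars by the distance of their midpoint from the gene start (x axis, bp) and their width, for WRKY18-HA, WRKY33-HA and WRKY40-HA at 2 h and WRKY18-HA at 0 h. The ALD1 upstream site and the PBS3 and EDS5 intron sites are stacked in all 6 libraries at 2 h, the ICS1 peaks lie from 1378 to 2350 bp upstream, and the 2 other lines have no 0 h peaks here.

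The 55 peaks fell on 14 sites when peaks of a gene that overlapped by at least 1 bp were merged over all lists. Of these, 7 were found in all 3 lines at 2 h, 3 in WRKY18-HA and WRKY40-HA without WRKY33-HA, and 3 in WRKY33-HA without the others. The remaining site was the PBS3 upstream peak of WRKY18-HA. The same split over the sites of all loci was not computed, so these counts of sites are a description without a background. Only 3 sites, at ALD1, EDS5 (intron 1) and PBS3 (intron 1), were present in all 6 lists at 2 h. Introns held 16 of the 48 peaks of these genes at 2 h, where 4.97% of all 2 h peaks lay in introns. Repeated calls of 1 site are not independent, and these intron peaks came from 4 sites, at ALD1, EDS5, PBS3 and SARD1.

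Where lines shared a site, the gap between their maxima varied. At PBS3, the maxima of the WRKY18-HA and WRKY40-HA peaks lay 12 bp apart in replicate 1 and 3 bp apart in replicate 2. At ALD1 those gaps were 9 and 3 bp, and the WRKY33-HA and WRKY40-HA maxima at ALD1 in replicate 2 lay at the same base. The WRKY33-HA maximum at PBS3 lay 67 bp from that of WRKY18-HA and 79 bp from that of WRKY40-HA in replicate 1. In replicate 2 it lay 10 and 13 bp from them. At ICS1, the replicate 2 maxima of WRKY18-HA and WRKY40-HA also lay at the same base, and the WRKY33-HA maximum lay 122 bp from it. Between replicates of 1 line, the gap over all overlapping peaks had a median of 28 to 37 bp. The gap between lines over all shared peaks is not given here, so the gaps at these genes have no background.

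The comparison of 2 h with 0 h asked where the factors gained peaks after flg22. At 2 h, EDS5, PBS3 and ALD1 were listed in 6 of 6 libraries and ICS1 and FMO1 in 5 of 6. At 0 h each of these 5 genes was listed in 1 of 6 libraries. That library was WRKY18-HA replicate 2 in every case, and it also held SARD1. No WRKY33-HA or WRKY40-HA list at 0 h held any of the 10 genes, where 0.129% and 0.058% of loci were listed in either replicate. The WRKY40-HA replicate 1 list at 0 h had a median WT score of 4.63 and a median score fold over WT of 2.99. In replicate 2 these medians were 0.412 and 11.7, so the 2 WRKY40-HA lists at 0 h are not alike. With WRKY18-HA, 6 genes had a 0 h peak, where 4.41% of loci had one in either replicate, and none had one in both, where 0.546% of loci did. Without replicate 2 the count of genes with a 0 h peak is therefore 0.

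For each gene, the number of 2 h lists minus the number of 0 h lists was tested by an exact permutation test (two-sided, 216 arrangements within lines). EDS5, PBS3 and ALD1 reached an exact permutation p = 0.0278, and p = 0.181 with Benjamini-Hochberg adjustment over 4316 loci. ICS1 and FMO1 reached exact p = 0.0833 (adjusted p = 0.290), and CBP60G, in 2 lists against 0, reached 0.333 (adjusted p = 0.668). For SARD1 and DMR6 p was 1. No locus passed the adjusted threshold of 0.05 in this test, and 662 of 4316 (15.3%) had an unadjusted p up to 0.05, so 3 genes at that level are not set apart from the other loci. The smallest p of the design, 0.00926, needs a gene to be in all 2 h lists and no 0 h list, as 166 loci were. Many more loci would have had to reach that p for any to pass the adjusted threshold. The lack of passing loci therefore does not show unchanged listing. All tested loci had a peak in some list, and the 0 h lists of WRKY33-HA and WRKY40-HA held 9 to 44 peaks. Listing at 2 h thus largely set the direction, and all 662 loci were in more 2 h lists than 0 h lists.

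In WRKY18-HA replicate 2, the one replicate with peaks of these genes at both times, scores could be set side by side. ICS1 scored 51.0 at 2 h and 19.1 at 0 h, a log2 ratio of 1.41. ALD1 scored 82.0 at 2 h and 28.1 at 0 h (1.54), and PBS3 46.2 at 2 h and 21.95 at 0 h (1.07). The median log2 ratio over all 1574 overlapping pairs of peaks was 0.24, with quartiles of −0.09 and 0.65. The ratios of ICS1, ALD1 and PBS3 were thus above the upper quartile. FMO1 (0.52) and the EDS5 promoter and intron sites (0.37 and 0.21) lay between the quartiles, and SARD1 (−0.27) lay below the lower one. With the authors' tag fold over WT in place of the score, ICS1 had a log2 ratio of 1.75, ALD1 1.18 and PBS3 0.82, against a median of 0.34 and an upper quartile of 0.76. The tag ratio was 0.43 at FMO1, 0.54 and 0.34 at the EDS5 promoter and intron sites, and −0.01 at SARD1. This is 1 pair of libraries with no replicate check, and the libraries were called against different WT controls.

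**Figure D3:**
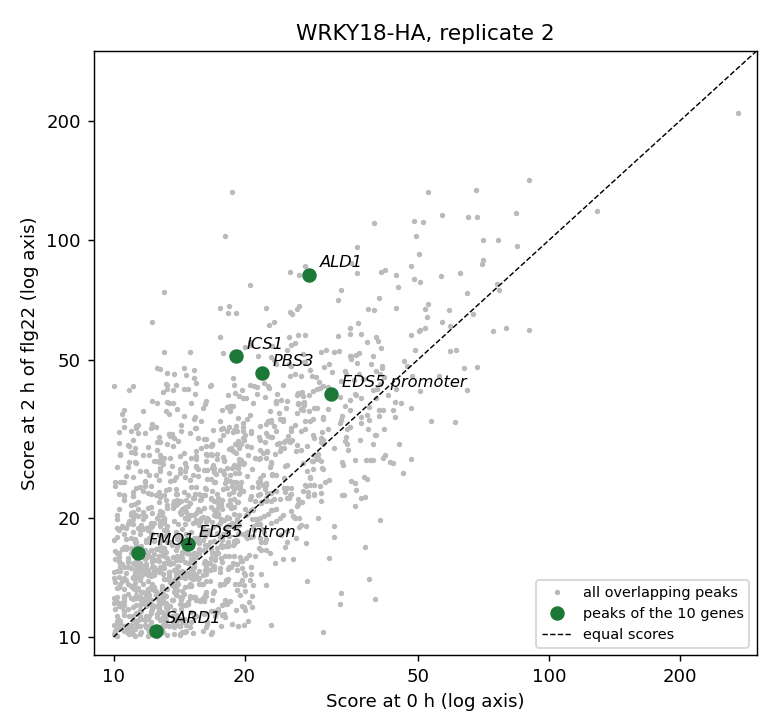
Scores of WRKY18-HA replicate 2 at 2 h of flg22 (y axis) against 0 h (x axis), both log axes, for all 1574 overlapping pairs of peaks (grey) and the 7 pairs of these genes (green). ICS1, ALD1 and PBS3 lie well above the line of equal scores and SARD1 lies below it.

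The factors were then compared with each other at 2 h. WRKY33-HA scores were lower than those of both other lines at ICS1 and PBS3 in each replicate where both lines had a peak of the site. At PBS3 the log2 ratio of WRKY33-HA to WRKY18-HA was −1.87 and −1.93 in replicates 1 and 2. The median over all shared peaks was −0.33 and −0.20, and at most 4.64% of them had as low a ratio. Relative to WRKY40-HA, the PBS3 ratio was −1.66 and −1.96, against medians of −0.36 and −0.38. At ICS1, in replicate 2, it was −1.56 to WRKY18-HA and −1.82 to WRKY40-HA.

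ALD1 differed less than PBS3, with ratios of WRKY33-HA to WRKY18-HA of −1.11 and −1.02, and to WRKY40-HA of −0.27 and −1.21. The ratios of −1.11, −1.02 and −1.21 still lay below the lower quartile of all shared peaks, of which 17.2% to 19.7% were as low. The ratio of −0.27 lay within the quartiles. At the EDS5 intron site all 4 WRKY33-HA ratios lay between −0.54 and −0.29, within the quartiles of all shared peaks. The narrow upstream site of EDS5, where the WT score was raised, had a wider gap in replicate 2. Its ratio was −1.25 to WRKY18-HA and −0.47 to WRKY40-HA, and WRKY33-HA had no peak at the EDS5 promoter site. Ranks showed the same order at PBS3: WRKY33-HA at 57.0% and 68.0%, WRKY18-HA at 5.44% and 4.91%, and WRKY40-HA at 6.64% and 7.70%. Scores depend on each library's depth and on a WT control that the lines share, and score ranges differ between lines.

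WRKY18-HA and WRKY40-HA, related factors of the same subgroup of the family, had close scores at PBS3 in both replicates and at the main ICS1 site in replicate 2. At PBS3 the log2 ratio of WRKY18-HA to WRKY40-HA was 0.20 and −0.03 in replicates 1 and 2, and at the main ICS1 site −0.26 in replicate 2. In replicate 1 that ICS1 site scored 75.8 with WRKY18-HA and was not listed with WRKY40-HA, and the farther ICS1 site had a ratio of 0.49, above 92.7% of shared peaks. The widest gaps were at ALD1 in replicate 1 (0.84) and at the narrow EDS5 site in replicate 2 (0.78), where the WT score was raised. At ALD1 the sign turned in replicate 2 (−0.19), so neither line was above the other in both replicates. Each line had 2 libraries, for which the smallest p of an exact permutation test is 0.333, and the differences between these lines are given as values, with no test.

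**Figure D4:**
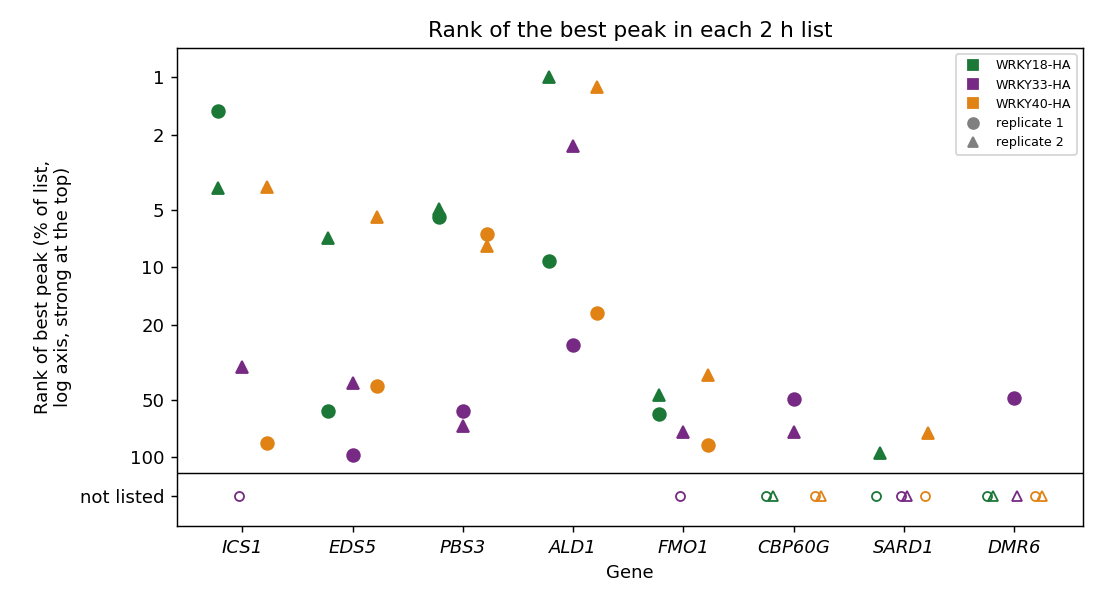
Rank of the best peak of each gene in the 2 h lists, as a percent of the list (y axis, log scale, strongest at the top), coloured by line with replicate 1 as circles and replicate 2 as triangles; open symbols mark genes not listed. PBS3 ranks within 4.91% to 7.70% with WRKY18-HA and WRKY40-HA and at 57.0% and 68.0% with WRKY33-HA, and ALD1 and EDS5 rank higher in replicate 2 than in replicate 1 in every line.

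Scores were higher in replicate 2 at ALD1 and EDS5. For WRKY40-HA, the log2 ratio of the replicate 2 score to the replicate 1 score was 2.11 at ALD1 and 1.61 at the EDS5 promoter site, where 95% of all overlapping peaks of that line lay below 1.54. For WRKY18-HA it was 1.08 at ALD1 and 1.48 at that EDS5 site, and for WRKY33-HA 1.17 at ALD1. At the EDS5 intron site the ratio was only 0.46, 0.21 and 0.28 for WRKY18-HA, WRKY33-HA and WRKY40-HA, and at the narrow EDS5 site 0.91 for WRKY40-HA. At ICS1 (−0.57 for WRKY18-HA) and PBS3 (−0.08, −0.13 and 0.16 for WRKY18-HA, WRKY33-HA and WRKY40-HA) the ratio was near or below 0. The medians over all overlapping peaks were 0.23, 0.23 and 0.42. Replicate, WT control and library depth cannot be told apart in this difference.

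Other genes of the salicylic acid pathway, among them further CBP60 genes, had peaks in at most 1 replicate of a line at 2 h. In a list of 22, none had a peak in both 2 h replicates of any line, beside the 3.1% to 3.95% of all loci that did. At such shares a list of 22 can well hold none. In either 2 h replicate, WRKY18-HA had peaks at 5 of the 22, WRKY40-HA at 3 and WRKY33-HA at 1, beside 7.26%, 7.83% and 6.97% of all loci. EPS1, which speeds the last step from the glutamate conjugate to salicylic acid, had a peak 281 to 294 bp upstream that scored 15.3 in WRKY18-HA replicate 2 and 15.9 in WRKY40-HA replicate 2 at 2 h. The authors annotate the peaks of this site as the promoter of another gene, AT5G67170. WRKY18-HA scored 23.5 there in replicate 2 at 0 h, above its 2 h score. By tags the order turned, with EPS1 at 5.35-fold over WT at 0 h and 7.6-fold at 2 h. The PAL2 promoter, of a phenylalanine ammonia-lyase, scored 12.8 in WRKY18-HA and 11.5 in WRKY40-HA in replicate 2 at 2 h, and 13.1 in WRKY18-HA at 0 h. By tags PAL2 was 2.82-fold over WT at 0 h and 7-fold at 2 h with WRKY18-HA. ICS2, the second isochorismate synthase gene, scored 12.9 in WRKY18-HA replicate 2 at 2 h and 11.8 at 0 h, from peaks 2710 and 2734 bp upstream. By tags those ICS2 peaks were 6.7-fold over WT at 2 h and 7.23-fold at 0 h. UGT75B1 was listed in WRKY18-HA and WRKY40-HA replicate 2 (11.7 and 16.8), and CBP60A in WRKY18-HA replicate 1 (12.5) and WRKY33-HA replicate 2 (19.1), at sites 70 and 2152 bp upstream. The farther CBP60A site is annotated as the transcript end of AT5G62560. These genes were named after their values were seen.

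Genes next to some of these 10 carried peaks of their own. Beyond PBS3, the next gene, Rap2.6L (AT5G13330), was listed in 4 of 6 libraries at 2 h and 1 of 6 at 0 h, with scores up to 31.0. The second gene on, AT5G13340, was listed in 6 of 6 libraries at 2 h and 1 of 6 at 0 h, with scores up to 44.1. Beside FMO1, AT1G19240 was listed in 5 of 6 libraries at 2 h and 1 of 6 at 0 h. Its highest score, 45.7, came from WRKY18-HA replicate 2 at 0 h, against 38.8 in that replicate at 2 h. Both were above every FMO1 score. On the other side of FMO1, AT1G19260 was listed in 5 of 6 libraries at 2 h and 0 of 6 at 0 h, with scores up to 21.6. Beside DMR6, BGLU31 was listed in 6 of 6 libraries at 2 h and in 0 of 6 at 0 h, with scores up to 25.1. No peak assigned to another gene had its midpoint within 2000 bp of the start of ICS1, EDS5, PBS3, CBP60G, SARD1, ALD1 or FMO1, the 7 genes whose start could be derived from the deposited distances.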

How the data were processed

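Peak lists of 12 HA libraries were used; the 4 WT libraries enter only as control columns. The submitters' processing notes name FastQC 0.11.2, cutadapt 1.2.1, Bowtie 0.12.7, HOMER and build TAIR10. Which tool called the peaks, and at what threshold, is not given in the sources used here. Per the file headers, the authors deposited for each peak a score and a tag count for HA and WT, fold ratios of each over WT, and a −log10 q-value that no result uses. Read totals per library are not known beyond the 7 to 20 M stated in the labels, and intervals cover counting error only. Coordinates are 1-based in TAIR10, as deposited. Distances are the authors', from peak midpoints.

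Every peak was kept. The members and gene lists were chosen with earlier results of these data known. All 10 genes are named. The 22 other pathway genes were to be named only with a peak in both 2 h replicates of a line; none had that, and the 5 with any 2 h peak were named after their values were seen, as were the neighbouring genes. Loci and gene order came from RefSeq's TAIR10.1 gene table, which held all 10 and all 22 genes and 4217 of the 4316 loci with a peak. Listing was tested by exact permutation within lines, checked on simulated lists. Alternatives covered distance, score, assignment, overlap, replicates and lines. A planned count of W-box letters was not analysed here. Software was Python 3.11.15 (numpy 2.4.6, pandas 2.3.3, scipy 1.17.1) with figures from matplotlib 3.10.9.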

Additional observations from a re-analysis of the deposited data

How the results depend on the processing

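The number of these genes with a peak in both 2 h replicates depended on how peaks were filtered. Within 1000 bp of the start it was 2 for WRKY18-HA and 2 for WRKY40-HA, against 5 each. With scores of at least 20 it was 3 for WRKY18-HA, 2 for WRKY40-HA and 0 for WRKY33-HA, and in the better-scoring 50% of each list 3, 3 and 1. With 1 replicate in place of both, the counts were 5 to 6 in each line. Where peaks of both replicates had to overlap by 1 bp, WRKY40-HA had 4, losing ICS1. Summing a gene's scores in place of the best one moved 5 means by more than the replicate spread (EDS5 in each line, PBS3 with WRKY18-HA and FMO1 with WRKY40-HA), and no result reversed. The count of WRKY18-HA genes with a 0 h peak was 6, and 0 without WRKY18-HA 0 h replicate 2, an alternative chosen after seeing the data. In the listing test 0 loci passed under every alternative run; without a replicate or without a line, its smallest p was above 0.05. Adjusted p for ALD1, EDS5 and PBS3 ranged from 0.0867, without WRKY18-HA 0 h replicate 2, to 1. With a replicate block, 0 loci passed as well, with a smallest p of 0.0312 and adjusted 0.407. With that block, the exact permutation p of EDS5, PBS3 and ALD1 was 0.0625, against 0.0278 in the main test. Same-numbered 2 h and 0 h libraries correlated in their deviations by 0.45 for WRKY18-HA and by 0.04 and 0.02 for WRKY33-HA and WRKY40-HA. The 0 h lists of WRKY33-HA and WRKY40-HA held only 9 to 44 peaks, so their values cannot decide whether the numbers pair the times. The main test did not take the numbers as pairs. Same-numbered 2 h libraries of different lines, which share a WT control, correlated by 0.29 to 0.71, and lines were compared within a replicate.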
